A study of Mus musculus with 3 samples.

Results

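Neutrophils carry preformed antimicrobial proteins in granules that are filled in a fixed order while the cell matures in the bone marrow. Primary (azurophil) granules, made first, hold myeloperoxidase and serine proteases. Secondary (specific) granules follow with lactoferrin, cathelicidin and lipocalin 2, then the gelatinase-rich tertiary granules, while the calcium-binding pair S100A8 and S100A9 (calprotectin) fills the cytosol. Most of these mRNAs are made in precursor stages and fall away in mature cells, whereas S100a8 and S100a9 mRNA stays abundant in circulating neutrophils. The thymus is mainly an organ of maturing T cells and holds few neutrophils.

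The 9 genes described here are S100a8, S100a9, Camp, Ngp, Ltf, Lcn2, Mpo, Elane and Retnlg, chosen by symbol out of 52636 gene identifiers. They were read in RNA-seq gene counts of 3 normal thymi, numbered thymus 1, 2 and 3 as the labels number the replicates. All 3 are of 1 group, C57BL/6 mice of genotype Cic flox/flox that had been given tamoxifen (TAM). The study used them as the normal side of a comparison with lymphomas that lack Cic, which encodes the repressor capicua. The lymphomas are not analysed here, so no contrast between conditions follows. The labels used here name neither a Cre driver nor an age, and nothing in them says that the libraries came from separate animals, so a p-value here speaks of how these samples spread, and that spread can be technical.

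The libraries held 25408442 to 30414788 reads assigned to genes. Levels are CPM, the usual depth-scaled read count, computed here with TMM scaling of the library totals, with SDs over the 3 libraries. In each library 3 reads correspond to 0.0985 to 0.122 CPM. Thymocyte markers were high in every library, from Ptcra, the pre-T cell receptor alpha chain, at 34.6 to 39.7 CPM up to the recombinase gene Rag1 at 3875 to 4185 CPM. No overlap with a counted neighbour touched the genes: Mpo alone has an annotated partner on the other strand, Gm11505, with 0 reads in all 3 libraries. Of the 9 genes, 8 shared none of their 50-base stretches with another gene's transcripts, and Mpo shared 0.228%.

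The genes lie in 6 places on GRCm38, some of them close together. S100a8 (ENSMUSG00000056054.9, chromosome 3, 90668978 to 90670035, plus strand) and S100a9 (ENSMUSG00000056071.12, chromosome 3, 90692632 to 90695721, minus strand) are 22596 bases apart. Camp (ENSMUSG00000038357.10, 109847379 to 109849617, minus strand), Ngp (ENSMUSG00000032484.8, 110419747 to 110423012, plus strand) and Ltf (ENSMUSG00000032496.7, 111019271 to 111042767, plus strand) follow each other on chromosome 9, with gaps of 570129 and 596258 bases. Lcn2 (ENSMUSG00000026822.14) is on chromosome 2 at 32384633 to 32388252, minus strand. Elane (ENSMUSG00000020125.7) is on chromosome 10 at 79886247 to 79888215, Mpo (ENSMUSG00000009350.13) on chromosome 11 at 87793581 to 87804413 and Retnlg (ENSMUSG00000022651.5) on chromosome 16 at 48872621 to 48874496, all on the plus strand. All 9 are annotated as protein-coding.

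The upstream sequences of the 5 genes that were higher together in thymus 3, a set singled out after its values were seen, are shown so that their letters can be set beside their levels. They come from RefSeq on GRCm38.p6, read 5′ to 3′ on the gene's strand. The window is the 250 bases before the RefSeq start, and bases that GENCODE release M21 places inside its longer model of the gene are left out. Capitals mark matches on either strand to motifs of factor families that act in blood cells, or to the core promoter box that positions the start. The motif of the C/EBP factors was searched as TTNCNNAA. The core of ETS factor sites was searched as GGAAGT. For the GATA family the letters searched were AGATAA. The core promoter box was searched as TATAAA. No capitals overlap between motifs. The stretches are chr3:90668821-90668977 (plus) for S100a8, chr3:90695722-90695971 (minus) for S100a9, chr9:109849618-109849706 (minus) for Camp, chr9:110419558-110419746 (plus) for Ngp and chr9:111019042-111019270 (plus) for Ltf.
S100a8: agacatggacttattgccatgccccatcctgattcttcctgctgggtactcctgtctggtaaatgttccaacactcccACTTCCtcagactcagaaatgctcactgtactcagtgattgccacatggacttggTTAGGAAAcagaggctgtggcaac
S100a9: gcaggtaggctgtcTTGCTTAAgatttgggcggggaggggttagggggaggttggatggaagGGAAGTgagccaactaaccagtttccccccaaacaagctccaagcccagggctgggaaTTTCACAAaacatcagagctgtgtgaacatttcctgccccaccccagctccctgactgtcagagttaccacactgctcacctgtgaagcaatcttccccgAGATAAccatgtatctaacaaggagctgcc
Camp: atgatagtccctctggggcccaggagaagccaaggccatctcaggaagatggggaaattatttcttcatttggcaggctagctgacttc
Ngp: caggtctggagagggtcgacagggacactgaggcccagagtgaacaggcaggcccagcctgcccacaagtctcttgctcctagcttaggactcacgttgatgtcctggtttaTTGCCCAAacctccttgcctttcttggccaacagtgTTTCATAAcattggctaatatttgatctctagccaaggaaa
Ltf: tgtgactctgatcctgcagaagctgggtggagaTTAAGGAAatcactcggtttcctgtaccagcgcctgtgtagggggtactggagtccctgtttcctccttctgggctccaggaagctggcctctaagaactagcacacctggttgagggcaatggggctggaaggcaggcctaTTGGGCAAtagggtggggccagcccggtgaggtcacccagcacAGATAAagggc
Over the full 250-base windows, 6 of the 9 genes held a C/EBP match, against 36.8% of 32817 RefSeq promoters. S100a9 held 2 such matches, Ngp 3 and Ltf 2, while S100a8, Lcn2 and Retnlg held 1 each and Camp, Mpo and Elane none. An ETS match stood in 4 windows (S100a8, S100a9, Mpo and Elane; 19.7% of all promoters), a GATA match in 2 (S100a9 and Ltf; 9.99%) and a match to the core promoter box in 1 (S100a8, 30 bases before the start; 12.4%). Thus no motif searched was common to the 5 genes that were higher together. A match is a run of letters, not a shown binding site.

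**Figure D1:**
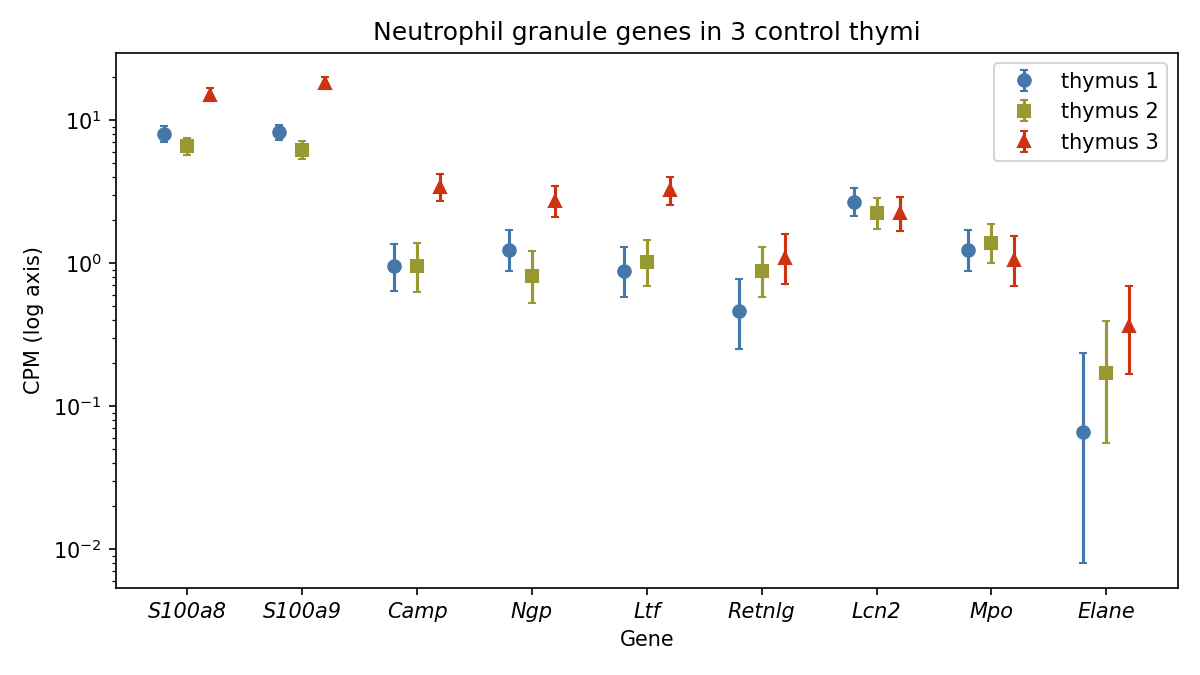
Level of each neutrophil granule gene in thymus 1, 2 and 3, in CPM on a log axis; points are single libraries and bars are exact 95% Poisson intervals, which cover counting error only. S100a8, S100a9, Camp, Ngp and Ltf lie highest in thymus 3 with bars clear of the other libraries, while the bars of Lcn2 and of Mpo overlap across all 3 libraries.

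The calprotectin genes were the most abundant of the 9. S100a9 had 251, 183 and 450 reads, or 8.24, 6.23 and 18.2 CPM in thymus 1, 2 and 3. S100a8 had 245, 193 and 373 reads, or 8.04, 6.57 and 15.1 CPM. Thymus 3 was the highest and thymus 2 the lowest for both partners of this heterodimer. Thymus 3 stood above thymus 2 by 2.93 times for S100a9 (95% counting interval 2.46 to 3.49) and 2.30 times for S100a8 (1.93 to 2.75). The gap between thymus 1 and thymus 2 was smaller, at 1.32 (1.09 to 1.61) and 1.22 (1.01 to 1.49). Together the pair gave 68.3% (64.8 to 71.7, exact binomial 95% interval), 63.1% (59.1 to 67.0) and 70.3% (67.6 to 72.9) of the reads of the 9 genes in thymus 1, 2 and 3. Intervals here and elsewhere are computed from the read counts alone, so they cover counting error only and not other spread between libraries. The reads carry no molecular identifiers, so the counts are of reads and not of molecules.

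Among the secondary granule genes, Camp, Ngp and Ltf had that high value in thymus 3. Camp, which encodes the antimicrobial peptide precursor cathelicidin, had 29, 28 and 84 reads (0.952, 0.953 and 3.40 CPM). Ltf, the gene of the iron-binding protein lactoferrin, had 27, 30 and 80 reads (0.886, 1.02 and 3.24 CPM). Ngp, whose product neutrophilic granule protein is related to cathelicidin, had 38, 24 and 67 reads (1.25, 0.817 and 2.71 CPM). For each of the 3 genes thymus 3 was separate from the other libraries. Thymus 3 exceeded thymus 2 by 3.57 times for Camp (95% counting interval 2.30 to 5.69), 3.17 times for Ltf (2.06 to 5.002) and 3.32 times for Ngp (2.06 to 5.54). Against thymus 1 the ratios were 3.58 (2.32 to 5.66), 3.66 (2.34 to 5.89) and 2.18 (1.44 to 3.33).

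Lcn2, whose product lipocalin 2 binds bacterial siderophores, is also stored in secondary granules but did not share that order. It had 82, 66 and 55 reads, or 2.69, 2.25 and 2.23 CPM, highest in thymus 1. Thymus 3 stood at 0.992 times thymus 2, with a 95% counting interval of 0.680 to 1.44 that lies below the intervals of Camp, Ltf and Ngp. Relative to Camp per kilobase of exon, the Lcn2 level was 0.817, 0.681 and 0.189 in thymus 1, 2 and 3. The size of such ratios depends on the exon length used, here all annotated exons of a gene. Their change between libraries does not. Lactoferrin mRNA by contrast kept nearly the same proportion to Camp, at 0.205, 0.235 and 0.209. The proportion of Ngp to Camp was less steady, at 0.813, 0.532 and 0.495. Epithelial cells also make lipocalin 2, and the epithelial markers Epcam (32.0, 31.4 and 26.3 CPM) and Krt5 (129.6, 146 and 106 CPM) were present in all 3 thymi, both lowest in thymus 3. The 12 barrier epithelium genes listed summed to 681, 665 and 737 CPM, mostly from Ly6d (409, 414 and 526 CPM), which lymphoid cells also express. Of the 9 of them tested, 3 were highest in each of thymus 1, 2 and 3, against 24.1%, 38% and 37.9% of all genes tested. Of these 9, 1, Dmbt1 (36.2, 0.681 and 0.405 CPM), varied beyond the abundance trend (edgeR quasi-likelihood adjusted p = 0.00625), against 0.0604% of all genes tested. The part of these epithelial genes' cells in the Lcn2 level was not tested.

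The primary granule genes were low. Mpo, the gene of myeloperoxidase, had 38, 41 and 26 reads, or 1.25, 1.40 and 1.05 CPM, with its lowest value in thymus 3. Its ratio of thymus 3 to thymus 2 was 0.755, and the counting interval of 0.443 to 1.26 includes equality. Elane, which encodes neutrophil elastase, had 2, 5 and 9 reads (0.0656, 0.170 and 0.365 CPM), the fewest of the 9 genes. Thymus 1, with 2 reads, lay under the 3-read limit, and the ratio of thymus 3 to thymus 1 was 5.55 with a counting interval of 1.15 to 52.8. Elane was too low to enter the tests below. Retnlg, a resistin-like gene expressed in neutrophils, had 14, 26 and 27 reads (0.459, 0.885 and 1.09 CPM). Its order differed again, with thymus 2 and 3 close together (ratio 1.24, interval 0.694 to 2.20) and thymus 1 the lowest.

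Per kilobase of exon, levels of different genes can be set against each other only roughly. The length counts every exon base of all annotated transcripts of a gene, which can exceed that of 1 transcript. Lcn2, for example, was given 2623 bases. On this scale S100a9 led at 20.9 ± 12.3 CPM per kilobase (SD, n = 3), followed by S100a8 at 14.3 ± 6.58. S100a9 was above S100a8 in 3 of 3 libraries, by 1.36, 1.26 and 1.60 times, although their ranges over libraries overlapped. The lowest S100a8 value, 9.47, was above the highest value of the next gene, Camp, at 4.49. Below that step came Camp at 2.33 ± 1.87, Retnlg at 1.37 ± 0.545, Ngp at 1.303 ± 0.814, Lcn2 at 0.911 ± 0.0999, Ltf at 0.497 ± 0.383, Mpo at 0.360 ± 0.0502 and Elane at 0.203 ± 0.154. From Camp down, each gene's range overlapped that of the next, so the order of neighbours is not separated by the spread between thymi. Of the 9 genes, 4 (S100a8, S100a9, Lcn2 and Mpo) reached 1 CPM in every library and 1 (Elane) stayed below it in every library.

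With 1 condition, the question open to a test is how much each gene varies between thymi. Of the 8 genes tested, 6 (S100a8, S100a9, Camp, Ngp, Ltf and Retnlg) varied beyond counting noise (edgeR goodness of fit to a Poisson model, adjusted by Benjamini-Hochberg, threshold 0.05), where 43.4% of the 16548 genes tested did. The edgeR adjusted p was 1.46e-40 for S100a9, 1.85e-22 for S100a8, 7.99e-12 for Camp, 1.06e-10 for Ltf, 7.93e-07 for Ngp and 0.0460 for Retnlg. It was 0.560 for Lcn2 and 0.639 for Mpo. Without thymus 3 the count was 1, S100a9, and without thymus 1 Retnlg was no longer called (edgeR adjusted p = 0.579).

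Set against genes of like abundance, none of the 8 was called. Variability beyond the abundance trend was put to a one-sided F test built here from edgeR's quasi-likelihood fit. With 3 libraries, a gene that is not called is not thereby shown to be steady. This quasi-likelihood test, adjusted over all genes, called 0 of the 8 and 0.0604% of all genes tested. Its adjusted p was 0.533 for S100a9, 0.880 for Camp, 0.891 for Ltf, 0.976 for S100a8 and 0.984 for Ngp. At an unadjusted p under 0.05 there were 5 of the 8 (S100a8, S100a9, Camp, Ngp and Ltf), where 4.42% of all genes were. The call depended on the test. Negative binomial goodness of fit (edgeR) called 4, S100a8, S100a9, Camp and Ltf, against 0.737% of all genes. DESeq2 marked 2, S100a8 and S100a9, as dispersion outliers, against 0.489%. The quasi-likelihood test without a filter on low counts called 5, with adjusted p from 1.45e-07 for S100a9 to 0.0318 for Ngp, against 0.924% of 30857 genes.

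The size of the spread was large for the group. Over all 9 genes the median coefficient of variation was 59.0%, against 9.06% over all genes tested, which were mostly more abundant (median level 18.8 against 1.72 CPM). The highest library exceeded the lowest by 2-fold or more in 7 of the 9, against 3.16% of all genes tested. Thymus 3 was the highest library for 7 of the 9, against 37.9% of all genes tested. It lay 2-fold or more above thymus 2 for 6 (0.852% of all genes tested) and above thymus 1 for 6 (0.556%). Each of these counts includes Elane, at 2, 5 and 9 reads. Elane failed the filter that the genes behind the percentages passed, so the sets are not alike. The median log2 difference between thymus 3 and thymus 2 was 1.19, against −0.01 over all genes tested. Thymus 1 and thymus 2 were close, with a median log2 difference of 0.00 for the 9 genes, and single genes differed in either direction, from −0.85 for Retnlg to 0.57 for Ngp. In sum the 9 genes stood at 23.8, 20.3 and 47.4 CPM in thymus 1, 2 and 3. In bulk tissue, fewer cells of a type and less RNA per cell cannot be told apart.

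Other neutrophil genes had varied orders of the 3 libraries. Of the 7 primary granule genes, 5 were below 1 CPM in every library, Elane among them: Ctsg (cathepsin G) had 10, 7 and 13 reads, Prtn3 (proteinase 3), whose gene lies beside Elane, had 7, 14 and 6, Ms4a3 had 4, 5 and 7, and Bpi had 1, 3 and 1. Prss57, a serine protease gene, stood apart at 12.3, 13.96 and 16.1 CPM. Among the 4 other secondary granule genes, Hp (haptoglobin) was highest in thymus 2, at 9.45, 19.2 and 13.5 CPM. Chil3 (chitinase-like 3) was at 10.5, 8.68 and 9.03 CPM, and Olfm4 (olfactomedin 4) at 3.74, 3.71 and 3.24. Cd177, a neutrophil surface and granule protein gene, was at 0.459, 0.545 and 0.608 CPM. Of the 8 secondary granule genes tested, 4 varied beyond counting noise (Camp, Ltf, Ngp and Hp), a share near the 43.4% of all genes tested. Thymus 3 was highest for 4 of the 8, including 3 of the 4 called, against 37.9% of all genes tested.

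In the list of tertiary granule and late genes, Mmp8 (neutrophil collagenase) had 6, 4 and 24 reads, 7.14 times higher in thymus 3 than in thymus 2 (95% counting interval 2.45 to 28.3). Mmp8 was not tested, since its reads in thymus 1 and 2 were too few for the filter. Mmp9 (gelatinase B), which other myeloid cells also express, was at 10.2, 11.9 and 9.32 CPM. G0s2 was at 11.9, 11.6 and 16.2 CPM and Anxa1 (annexin A1) at 80.7, 60.7 and 71.8. Wfdc21 (0.820, 0.953 and 0.770 CPM) and Ifitm6 (0.427, 0.443 and 0.486) did not vary beyond counting noise by the test, and Stfa2l1 had 0, 1 and 1 reads. Of the 6 tested, 4 varied beyond counting noise (Anxa1, G0s2, Mmp9 and Retnlg), against 43.4% of all genes tested. Thymus 3 was highest for 3 of the 6, including 2 of the 4 called (G0s2 and Retnlg), against 37.9% of all genes tested.

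**Figure D2:**
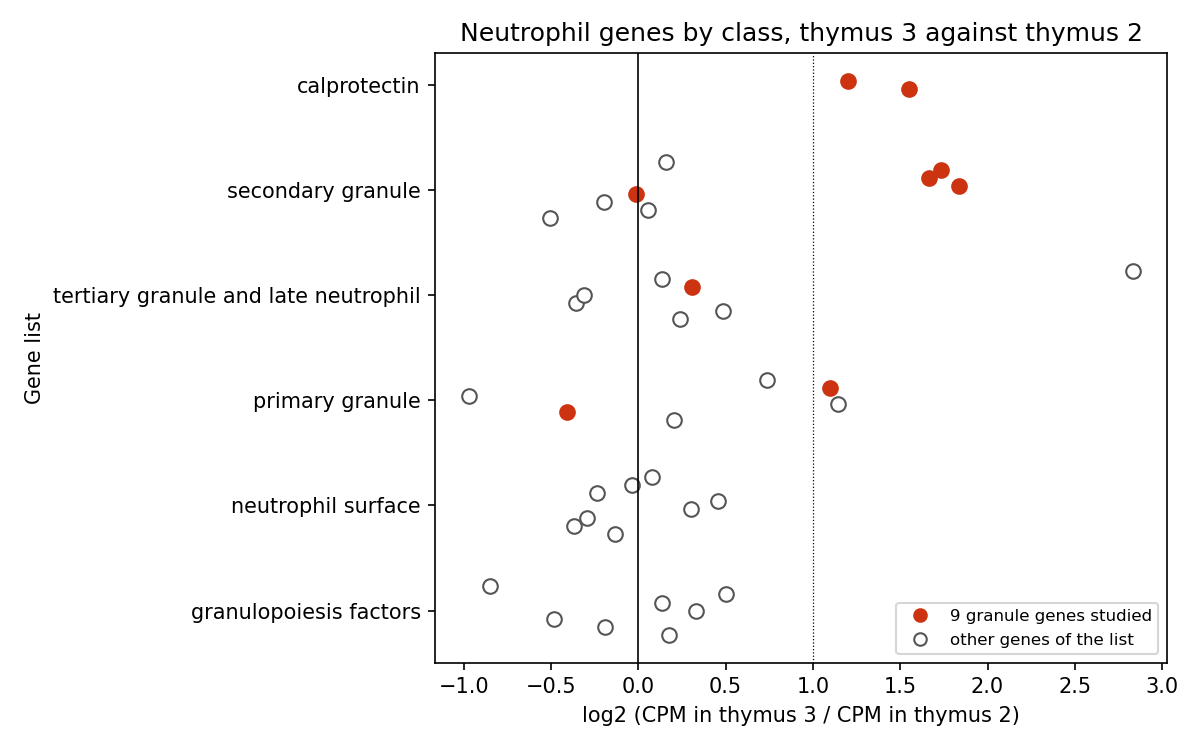
Log2 ratio of the CPM in thymus 3 to that in thymus 2 for 38 of 41 neutrophil-related genes, by class; the 3 not drawn had under 10 reads in those libraries together. Filled points are the 9 granule genes studied, the solid line marks equality and the dotted line a 2-fold ratio; S100a8, S100a9, Camp, Ngp and Ltf lie beyond the dotted line, as do Elane, Ctsg and Mmp8 at low read numbers, and the surface genes lie on both sides of equality.

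Neutrophil surface genes were low and had mixed orders of the 3 libraries. Ly6g, the standard mouse neutrophil marker, had 30, 35 and 24 reads (0.985, 1.19 and 0.972 CPM). Csf3r, the receptor for granulocyte colony-stimulating factor, was at 3.87, 3.81 and 2.96 CPM, and the integrin gene Itgam at 3.58, 3.78 and 3.44. The chemokine receptor gene Cxcr2 had 3, 11 and 9 reads. Of the 5 other genes listed, 4 had their highest CPM in thymus 3, with close values or few reads: Clec4e (0.755, 0.919 and 1.13 CPM), the formyl peptide receptor genes Fpr2 (0.394, 0.443 and 0.608) and Fpr1 (0.197, 0.306 and 0.324), and Trem1 (1, 2 and 2 reads). Clec4d had 15, 14 and 10 reads. Of 6 surface genes tested, 0 varied beyond counting noise (edgeR Poisson goodness of fit), against 43.4% of all genes tested. The count was also 0 at an unadjusted p under 0.05, where the lowest edgeR Poisson p was 0.136 for Csf3r. The negative binomial fit and DESeq2 marked 0 as well. The share of all genes beyond counting noise depends on the filter, from 22.1% with no filter on low counts to 59.6% at a mean of at least 5 CPM. At so few reads, 0 of 6 does not show that the surface genes were steadier than other genes. The 9 surface genes listed summed to 10.4, 11.4 and 10.3 CPM, most of it from Csf3r and Itgam. Other genes' transcripts held 66.3% of the 50-base stretches of Itgam, 31.5% of those of Fpr2 and 10.5% of those of Csf3r. What this sharing does to the counts of these genes was not tested.

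Regulators of granulocyte formation were led by Gfi1 (132, 135 and 152 CPM), a repressor that thymocytes express too, and by Cebpa (21.6, 22.1 and 19.4 CPM) and Spi1 (17.1, 16.4 and 11.7 CPM), which encodes PU.1. Cebpe, the C/EBP factor needed for secondary granule genes, had 2, 15 and 7 reads, highest in thymus 2. Of the 6 factors tested, 3 varied beyond counting noise (Gfi1, Spi1 and Padi4), near the 43.4% of all genes tested. Thymus 3 was highest for 4 of the 6, including 2 of the 3 called, against 37.9% of all genes tested. Ligands that draw or expand neutrophils were low. Tnf was at 7.32, 8.37 and 6.24 CPM, Saa3 at 3.81, 5.07 and 5.59, highest in thymus 3, and Il1b at 4.27, 2.83 and 3.04. Thymus 3 was highest for 3 of the 7 ligands tested, against 37.9% of all genes tested. The gene of granulocyte colony-stimulating factor, Csf3, had 1, 2 and 2 reads, and the chemokine gene Cxcl1 was at 1.08, 0.987 and 0.486 CPM, lowest in thymus 3.

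Relatives of the granule genes within their families are given beside them, with no test between relatives and members. Among the 17 S100 genes, S100a10 (232, 213 and 271 CPM), S100a13 (51.6, 46.3 and 55.0) and S100a1 (45.8, 43.5 and 51.3) had the most reads. They had the library order of S100a8 and S100a9, thymus 3 highest and thymus 2 lowest. Their highest library was 1.27, 1.19 and 1.18 times the lowest. The family did not share 1 order. Of the 12 S100 genes tested, 7 (S100a8 and S100a9 among them) were highest in thymus 3, against 37.9% of all genes tested, and 5 in thymus 2. S100a8 and S100a9 were the 2 S100 genes that passed the low-count filter and differed 2-fold or more between thymi. S100b, not tested because its reads in thymus 1 were too few for the filter, had 6, 20 and 36 reads, also highest in thymus 3. S100a7a, the nearest protein-coding gene on the other side of S100a8, had 7, 5 and 1 reads. Of the resistin genes, Retnla (5.87, 6.26 and 3.93 CPM) and Retn (3.71, 4.05 and 2.51 CPM), both made in fat, were lowest in thymus 3, where Retnlg was highest. Of the 16 nearest protein-coding neighbours outside the 9 genes, 12 were tested, and 0 of them differed 2-fold or more between any libraries, where 3.16% of all genes tested did, so a count of 0 in 12 is near the general share. Their ratios of thymus 3 to thymus 2 ran from 0.627 for Retnla to 1.31 for Dzip3, and Nme6 and Cdc25a on either side of Camp were at 1.05 and 1.05.

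Other blood and myeloid cell types were read beside these values. Red cell genes followed another order: the 7 listed summed to 1023, 47.2 and 224 CPM in thymus 1, 2 and 3, with thymus 1 and not thymus 3 the highest. The quasi-likelihood test called 5 of the 5 red cell genes tested, against 0.0604% of all genes tested. Macrophage and dendritic genes summed to 1617, 1395 and 1310 CPM. All 10 were lowest in thymus 3, but the share of all genes lowest there was not counted. Among them, Lyz2 (lysozyme, also made by neutrophils) was at 684, 513 and 469 CPM. Monocyte genes summed to 249.3, 239 and 235 CPM and eosinophil genes to 25.3, 23.7 and 21.3 CPM. Mast cell and basophil genes summed to 15.8, 10.01 and 16.5 CPM, led by Cpa3 (10.6, 5.86 and 12.4 CPM). Cpa3 had the library order of S100a8 and S100a9, with thymus 3 at 2.12 times thymus 2. Of the 4 genes of this list tested, 2 were highest in thymus 3 and 2 in thymus 1, against 37.9% and 24.1% of all genes tested. Platelet genes summed to 5.45, 4.15 and 5.15 CPM, but Ppbp, a platelet chemokine gene singled out after its values were seen, had 3, 3 and 15 reads, highest in thymus 3. Progenitor genes Cd34, Flt3 and Kit summed to 50.1, 44.3 and 41.1 CPM. The part of any of these cell types in the granule gene values was not tested.

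**Figure D3:**
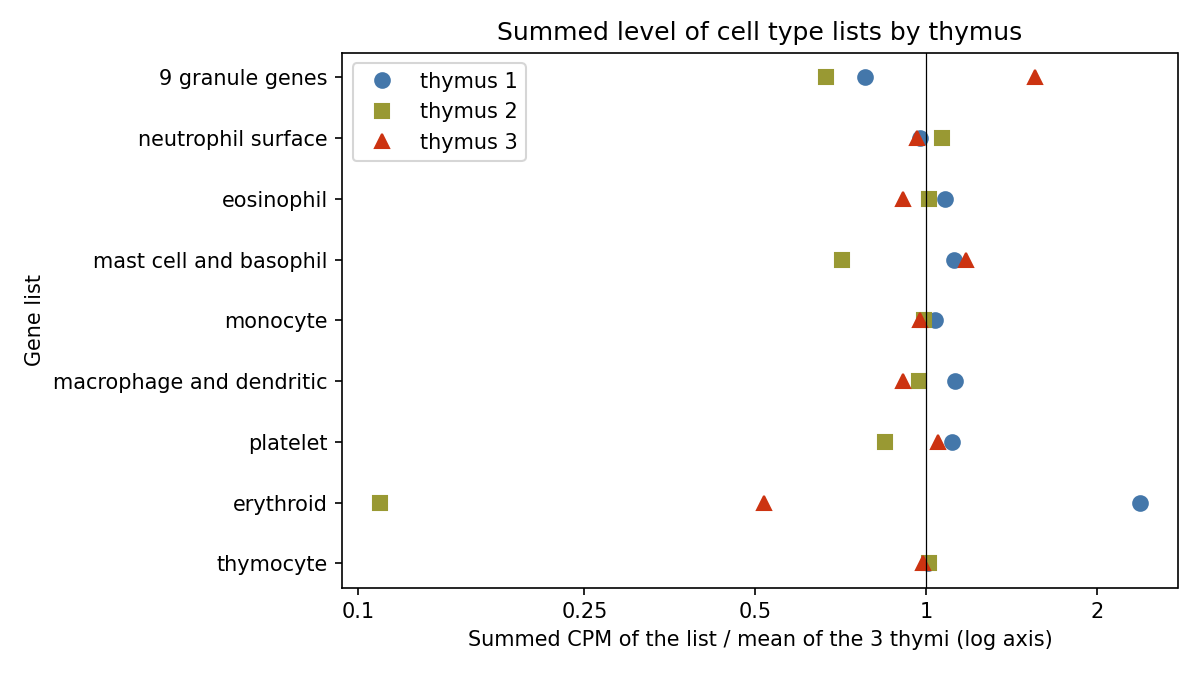
Summed CPM of each marker list in thymus 1, 2 and 3, divided by the mean of the 3 thymi, on a log axis; each point is 1 library. The 9 granule genes are highest in thymus 3 (1.55 times their mean), the erythroid genes in thymus 1 (2.37 times), and the surface list stays between 0.963 and 1.06.

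Libraries also differed in a trend with GC content. The Spearman correlation across 16522 genes, which are not independent replicates, of a gene's distance from its own mean level with the GC content of its transcripts was 0.416 in thymus 2 and −0.290 in thymus 3. The 9 genes ranged from 44.5% GC (S100a8) to 57.4% (Elane), around a median of 49.8% for all genes tested. With that trend removed, the median log2 difference between thymus 3 and thymus 2 was 1.09, and 7 of the 9 genes were still highest in thymus 3.

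The 5 genes whose pattern over the 3 libraries was nearest to the median of the 8 tested granule genes were taken by Euclidean distance of centred log2 CPM, among 14646 other genes of at least 1 CPM. They were Serpinb11 (2.07, 1.67 and 4.09 CPM; distance 0.0673), Cox8b (3.51, 3.06 and 7.86 CPM; 0.102), E230032D23Rik (2.20, 1.74 and 4.74 CPM; 0.108), Gm16310 (1.44, 1.23 and 2.67 CPM; 0.157) and Sema3c (2.56, 2.21 and 4.70 CPM; 0.167). Over 3 libraries such likeness is weak, and 30 of those 14646 genes stood at least as far above their own mean in thymus 3 as the granule gene median.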

How the data were processed

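RNA of 3 control thymi was sequenced with the TruSeq Stranded mRNA kit, per the labels' protocols. The submitters' processing notes name STAR 2.5.3a, DESeq2 (no version) and GRCm38. The authors deposited raw counts of reads for each gene in 3 strand columns, not normalized. Not given in the sources used here: annotation release and filters. The reverse-strand column was used. Summary lines that name no gene held 30.9% to 33.6% of reads and were left out. Of 52636 identifiers, 52489 matched GENCODE M21, and 147 did not.

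Tests ran in edgeR 4.0.16 and DESeq2 1.42.0 under R 4.3.3. The edgeR filter (minimum 10 reads, total 15) left 16548 genes, and tests were adjusted over all of them at 0.05. In 1 group this filter asks for about 10 reads in every library, scaled to depth. A gene low in only 1 library was therefore dropped too. Log2 CPM used a prior count of 2. Tests were checked on simulated data. The genes, lists, tests and the naming rule (the 9 genes, the listed granule and red cell genes, the 3 most abundant of each other list and 5 nearest genes) were chosen with earlier results of these data known. Some genes the rule takes are given only within sums. A further surface gene was dropped from its list, counts and sums, and is not reported here. Genes named beyond the rule were chosen for their position or role, or after their values were seen: Epcam, Dmbt1, Ptcra, Ly6g, Cxcr2, the other surface genes, Cebpe, Padi4, Csf3, Cxcl1, S100a7a, S100b and the neighbours, and Ppbp.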

Additional observations from a re-analysis of the deposited data

How the results depend on the processing

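The number of the 9 genes more variable than the abundance trend was 0 by the test built from edgeR's quasi-likelihood fit. It was 5 with no filter on low counts, 4 by goodness of fit to a negative binomial model and 2 by the dispersion outliers of DESeq2. It stayed 0 with reads of either strand, DESeq2 size factors, library totals, no mitochondrial genes, a minimum mean of 5 CPM, a non-robust prior and each library left out in turn. The number beyond counting noise, 6, was 2 with a mean of at least 5 CPM, a filter that only S100a8 and S100a9 passed, and 1 to 6 with 1 library left out, the 1 being without thymus 3; with no filter it was 5, since Retnlg was not called (edgeR adjusted p = 0.0866). Likewise 2 genes in place of 7 were highest in thymus 3 under that filter. The median ratio of the highest to the lowest library, 2.90 at a prior count of 2, was 1.22 to 2.30 with 1 library left out, lowest without thymus 3, so the spread of the group rests on that library. Over all genes tested, the count more variable than the trend was 10, but 8 with a minimum mean of 5 CPM, 285 with no filter, 122 by the negative binomial fit, 81 by DESeq2, and 25, 23 and 137 without thymus 1, 2 and 3. The count beyond counting noise over all genes was 7188, and 6579, 4348 and 3768 without thymus 1, 2 and 3. The cause of these shifts was not tested. The median log2 difference between thymus 3 and thymus 2 ran from 1.09 to 1.20 under all alternatives that gave one. No paired analysis was possible because the samples form 1 group. At 2 to 9 reads, Elane gives no firm order of libraries.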
